A study of Mus musculus with 4 samples.

Results

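The genes described here make up the core machinery of ribosome biogenesis in the nucleolus. They were followed in granulocytic myeloid-derived suppressor cells (G-MDSC), immature granulocytes that build up in mice with tumours and hold back T cells, and in inflammatory neutrophils. A list of 41 genes was drawn up by name, and 39 of them had at least 1 probe set annotated with a single gene symbol, out of 18193 such genes on the array. Each gene was read from its probe set with the highest mean log2 signal over the 4 arrays. All 39 passed the filter on low signals and were tested among 13139 genes. Rrp12 passed that filter only through its neutrophil arrays. Npm3 and Mrto4 had no probe set with a single symbol and have no value here.

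Affymetrix expression arrays were hybridised with total RNA of 2 G-MDSC samples and 2 neutrophil samples, 1 array each, all from female C57BL/6 mice with no genetic change named in the labels. The G-MDSC mice carried EL4 tumours, grown from a C57BL/6 T cell lymphoma line injected under the skin 3.5 weeks before the spleens were taken, and the cells were enriched on beads for Ly6G and defined as CD11b+Ly6G+Ly6Clow. The neutrophil mice had no tumour named in the labels and were given 1.5 ml of 12% casein, a milk protein that provokes inflammation, into the peritoneum 2 times, 16 h apart. Their peritoneal cells were washed out 3 h later, depleted of F4/80-positive cells and enriched for Ly6G. Ages, and whether mice were pooled, are not given, and nothing says that both samples of a group are from different mice; the p-values therefore reflect no more than the scatter of these samples, which may be technical. Cell kind, tissue, tumour, casein and sorting steps changed together between the groups and cannot be told apart.

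Ribosome biogenesis starts when RNA polymerase I copies the ribosomal DNA into a long precursor. Small nucleolar ribonucleoproteins (snoRNPs) guide the chemical modification of that precursor: those of the box C/D class methylate riboses, and those of the box H/ACA class turn uridines into pseudouridines. Processing complexes then cut and fold the precursor into the small and the large ribosomal subunit. Growing cells make much of this machinery, many of its genes are known targets of the transcription factor MYC, and granulocytes are known to reduce ribosome production as they mature.

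Most of these genes were lower in G-MDSC than in casein-elicited neutrophils. Of the 39 tested, 24 fell and 0 rose past a limma adjusted p of 0.05, while 8.05% of all tested genes were called lower and 8.3% higher. All 8 snoRNP proteins fell, from Gar1, 6.39-fold, to Nop10, 2.42-fold. None of the 3 RNA polymerase I subunits passed the threshold, but whether these classes differed was not tested. The log2 differences of Polr1a, Polr1b and Polr1e were 0.20, -1.08 and -1.47, and those of the snoRNP proteins ran from -2.68 to -1.28. The median log2 difference, G-MDSC minus neutrophils, was -1.39 over the 39 genes and -0.18 over all genes. The list thus lay 1.21 below the median gene. Median scaling shifts all genes of an array alike and so cannot change this distance. With quantile normalization the distance was 1.39. Both scalings moved the median of all genes above 0. The 2 arrays of each group did not overlap for 37 of the 39, with G-MDSC below, against 32.2% of all tested genes. The other two, Polr1a and Rrp1b, overlapped. With no adjustment 34 of the 39 genes had a limma p under 0.05, against 3890 of all 13139 genes in either direction. Fitted differences were at least 2-fold, with G-MDSC below, for 31 of the 39, against 2438 of all 13139. Rrp12, which passed the filter only through its neutrophil arrays, is among the 37, the 34 and the 31, but not among the 24.

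The calls depended on the scaling, the variance model and which arrays were kept. With median scaling 13 genes were called lower, against 5.57% of all genes. Among those not called were Dkc1, Nop10, Nop56, Npm1, Lyar, Wdr43, Utp18, Nop14, Bop1, Nop2 and Ppan. Without the intensity trend 6 were called, against 2.52% of all genes. Without limma's moderation 0 were called, and 0% of all genes. Before adjustment 22 of the 39 then lay under 0.05, against 2379 of all 13139 genes. Without G-MDSC replicate 1 or without G-MDSC replicate 2, 11 genes were called lower, against 33 without neutrophils replicate 1 and 30 without neutrophils replicate 2. Of all genes, 4.37%, 4.27%, 26.4% and 11.1% were called lower in these 4 fits, in the same order. The genes called in each of these 4 fits were 9: Gar1, Nhp2, Fbl, Nop58, Mybbp1a, Heatr1, Tsr1, Rrs1 and Nop16. Each of the 4 ways of setting a G-MDSC array against a neutrophil array placed 37 to 39 of the 39 genes below 0. At least 37 had to lie there, since the arrays of 37 genes were separate with G-MDSC below. The medians of these pairings ran from -1.65 to -1.20. Over all genes the corresponding medians ran from -0.36 to 0.07.

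Some properties of the arrays bear on every value below. The second neutrophil array had brighter low signals than the others, with a 40th percentile of 133 and a median of 178, against 45.7 to 52.6 and 75.8 to 83.3 in the other arrays. Of 12 granulocyte markers on the array, all were above the 40th percentile in all 4 arrays, and 3 were higher and 0 lower in G-MDSC: Cxcr2 by 1.24, Cd177 by 2.04 and Padi4 by 1.72 on the log2 scale. The list had summed signals of 286050 and 340350 in the G-MDSC arrays and 271950 and 324080 in those of neutrophils. Of 15 macrophage markers, 10 were lower and 0 higher in G-MDSC, with summed signals of 18186 and 18328 against 44858 and 66606. Bright genes weigh most in such sums, and Csf1r alone gave 11012 and 11272 against 16081 and 17388. Log2 differences of the 15 ran from -5.89 (Msr1) to 1.32 (Cd5l, not called). Among 10 markers of mast cells and basophils, 5 were lower and 1 higher, with sums of 20035 and 22583 against 41147 and 30863. Hdc, not called, alone gave 15256 and 18052 against 24350 and 24016. Of the lower ones, 3 (Mcpt4, Tpsb2 and Cma1) were at or below the 40th percentile in both G-MDSC arrays. The 1 higher, Mcpt8, was so in both neutrophil arrays. These genes passed the filter only through the group in which they were high. Of 6 platelet markers, 2 were lower, with sums of 1327 and 1093 against 6333 and 18843. Of 9 B and plasma cell markers, 3 were higher and 1 lower, with sums of 48040 and 36570 against 21097 and 19037. T and NK cell, erythroid and eosinophil markers had 1, 0 and 0 called genes, and their sums ran from 460 to 2816. No marker was at a signal of 0, but Cd4, Cd8b1 and Epx were at or below the 40th percentile in all 4 arrays. The part of these other cells in the differences of the ribosome biogenesis genes was not tested. In such mixed samples, more cells of a type and more RNA per cell cannot be told apart.

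**Figure D1:**
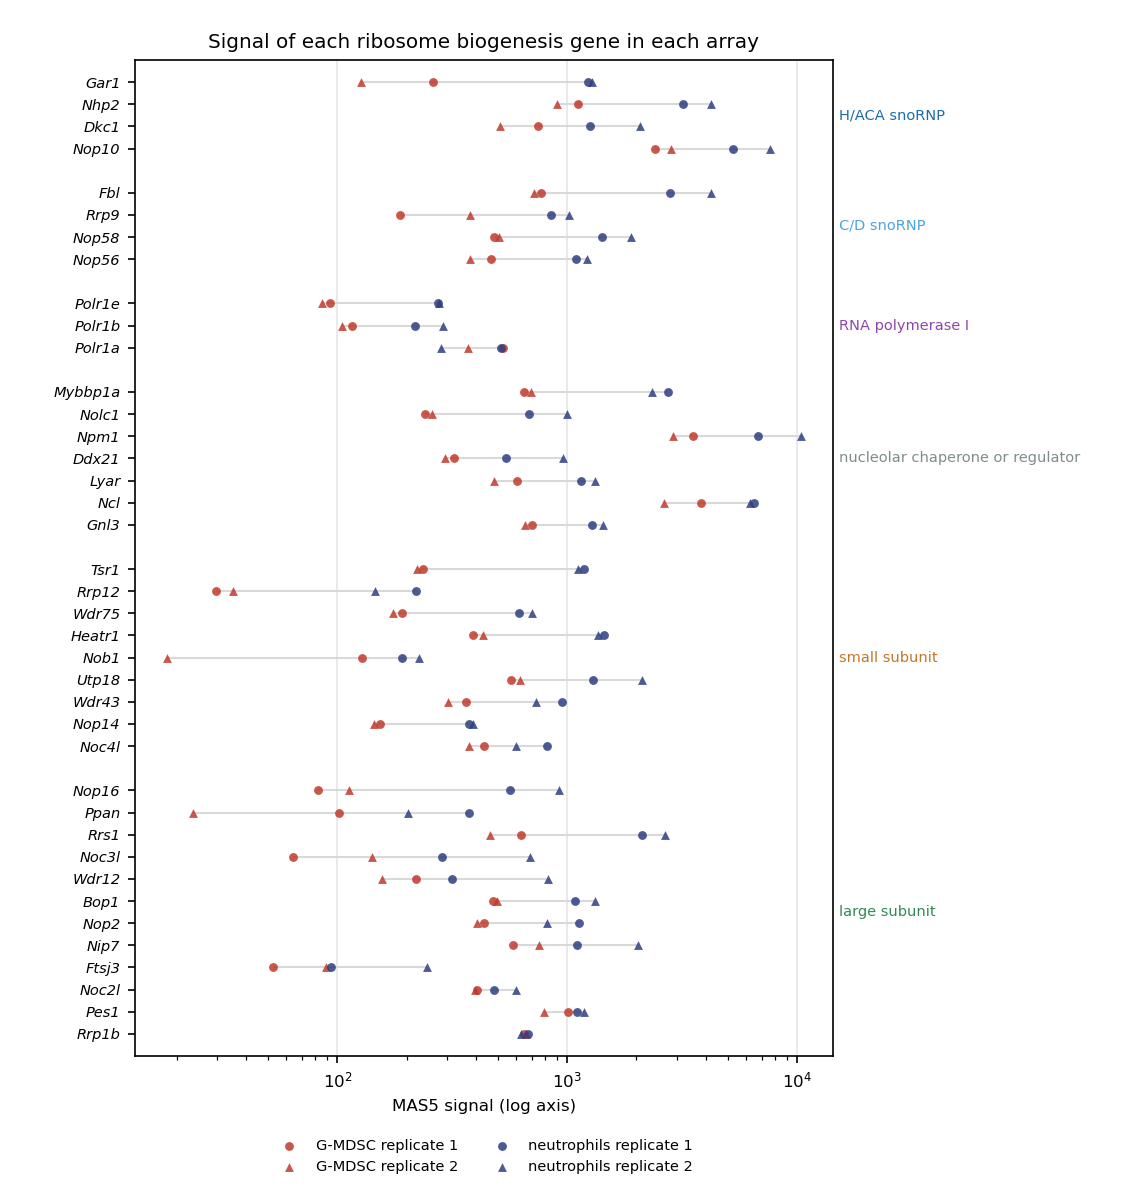
MAS5 signal, on a log axis, of each of the 39 genes in each of the 4 arrays, by role. Circles are replicate 1 and triangles replicate 2, G-MDSC in red and neutrophils in blue, and grey lines span the 4 arrays. The red symbols lie left of the blue ones for all genes but Polr1a and Rrp1b.

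The promoters of these genes were searched for short motifs, since members that move together may share them. RefSeq windows of assembly GRCm38.p6, from 250 bases before to 50 after each start, were at hand for 36 of the 41 listed genes. The E-box CACGTG, bound by MYC with its partner MAX, lay in the windows of 6 of these 36 genes (16.7%): Mybbp1a, Nop2, Pes1, Tsr1, Utp18 and Wdr43. The same letters were found for 18.6% of further ribosome biogenesis genes, 11.2% of tested genes with a window and 8.09% of all genes with one. The ETS family letters CCGGAAG, on either strand, lay in the windows of 12 genes (33.3%), against 44.1% of further ribosome biogenesis genes, 18.4% of tested genes and 9.93% of all. CCAAT, the letters bound by NF-Y, on either strand, were in 10 windows (27.8%), against 37.3%, 42.2% and 41.1% in the same order. Windows of 1 gene were counted together, and a match describes letters, not a bound site. The matches that lie wholly before the start, in genes that fell, are printed below for the E-box and the ETS letters, but not for CCAAT, 5′ to 3′ on the gene's own strand, cut at the start, with the matched letters in capitals.
Nop2 E-box, chr6:125131803-125131848, plus strand: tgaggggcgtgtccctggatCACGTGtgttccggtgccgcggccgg
Utp18 E-box, chr11:93885767-93885806, minus strand: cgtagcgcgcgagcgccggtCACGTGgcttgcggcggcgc
Gar1 ETS letters, chr3:129831413-129831459, minus strand: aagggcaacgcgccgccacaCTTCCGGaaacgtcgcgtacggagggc
Nhp2 ETS letters, chr11:51619730-51619772, plus strand: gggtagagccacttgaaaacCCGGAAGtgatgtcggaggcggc
Heatr1 ETS letters, chr13:12395339-12395374, plus strand: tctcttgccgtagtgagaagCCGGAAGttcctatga
Nolc1 ETS letters, chr19:46075813-46075846, plus strand: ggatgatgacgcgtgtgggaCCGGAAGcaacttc
Utp18 ETS letters, chr11:93885846-93885892, minus strand: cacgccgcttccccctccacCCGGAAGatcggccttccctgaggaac
Nop2 ETS letters, chr6:125131825-125131871, plus strand: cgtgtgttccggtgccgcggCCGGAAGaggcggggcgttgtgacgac
In Gar1 the match is the reverse complement of the letters searched. The E-box of Nop2 begins 60 bases before the start and that of Utp18 20 bases before it. The 2 motifs share no bases in Nop2, although their printed windows overlap.

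All 4 core proteins of the box H/ACA snoRNP fell in G-MDSC. Gar1, which completes the mature particle, had signals of 260 and 127 in the G-MDSC arrays against 1228 and 1276 in those of neutrophils. Its log2 difference was -2.68 ± 0.39 (SE, n = 2 per group; adjusted p = 0.00114), although the G-MDSC arrays themselves differed about as 2 to 1. Dkc1, dyskerin, the pseudouridine synthase of the particle, had signals of 743 and 510 against 1259 and 2077. The difference of Dkc1 was -1.37 ± 0.36 (adjusted p = 0.0241), and the call was lost without G-MDSC replicate 2 (adjusted p = 0.246). Both dyskerin and Gar1 were lower in every pairing of a G-MDSC array with a neutrophil array. Nhp2, an RNA-binding subunit, had signals of 1116 and 906 against 3201 and 4221, a difference of -1.85 ± 0.31 (adjusted p = 0.00257). Nop10, the smallest subunit, had 2401 and 2825 against 5264 and 7609, a difference of -1.28 ± 0.31 (adjusted p = 0.0179). Nop10 was not called without G-MDSC replicate 1 or 2 (adjusted p = 0.162 and 0.0665).

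The box C/D proteins fell as well. Fbl, fibrillarin, the methyltransferase that acts on ribosomal RNA, gave 768 and 714 in the G-MDSC arrays against 2790 and 4228 in those of neutrophils. The difference of Fbl was -2.19 ± 0.32 (SE, n = 2 per group; adjusted p = 0.00128), and the gap between the groups was far wider than that within either. The scaffold proteins Nop56 and Nop58 pair in the same particle. Nop58 gave 482 and 507 against 1414 and 1903, a difference of -1.70 ± 0.32 (adjusted p = 0.00497). Nop56 gave 467 and 379 against 1091 and 1220, a difference of -1.42 ± 0.33 (adjusted p = 0.0125). Of the pair, Nop58 was called in each fit without 1 array, whereas Nop56 was not called without G-MDSC replicate 1 or 2 (adjusted p = 0.0683 and 0.171). Rrp9, a protein of the snoRNP that directs the first cuts of the precursor, gave 187 and 379 against 849 and 1018. The difference of Rrp9 was -1.74 ± 0.39 (adjusted p = 0.0117), and it was not called without G-MDSC replicate 1 (adjusted p = 0.206), the lower of its G-MDSC arrays.

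The 3 measured subunits of RNA polymerase I did not pass the threshold, and they did not all lie on one side of 0. Polr1a, the largest catalytic subunit, had overlapping signals of 526 and 369 in the G-MDSC arrays and 513 and 284 in those of neutrophils. Its difference of 0.20 ± 0.40 (SE, n = 2 per group; adjusted p = 0.77) turned to -0.05 without G-MDSC replicate 1 and to -0.21 without neutrophils replicate 2. Polr1b, the second catalytic subunit, had 116 and 105 against 218 and 289, a difference of -1.08 ± 0.46 (adjusted p = 0.143). Polr1e, a subunit that helps assemble and elongate the complex, had 93.3 and 86.2 against 274 and 278. Arrays of both Polr1b and Polr1e were separate, with neutrophils above. The difference of Polr1e was -1.47 ± 0.46 (adjusted p = 0.053), close to the threshold, and it passed it without either neutrophil array (adjusted p = 0.016 and 0.0132). Its probe set is of the kind whose probes may also bind other transcripts.

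Of 7 nucleolar chaperones and regulators measured, 4 fell and 3 did not pass the threshold, and the arrays of all 7 were separate with G-MDSC below. Mybbp1a, a nucleolar protein that restrains transcription of ribosomal DNA and also takes part in processing, had 646 and 694 in the G-MDSC arrays against 2731 and 2337 in those of neutrophils. Its difference of -1.89 ± 0.31 (SE, n = 2 per group; adjusted p = 0.00204) was the largest of this class. Nolc1, a chaperone that carries snoRNPs to the nucleolus, had 241 and 257 against 678 and 993, a difference of -1.66 ± 0.36 (adjusted p = 0.00902). Npm1, nucleophosmin, an abundant chaperone of the outer nucleolus, had 3523 and 2871 against 6763 and 10373. The difference of Npm1 was -1.39 ± 0.32 (adjusted p = 0.0135). Lyar, a nucleolar factor of growing cells, had 606 and 482 against 1144 and 1320, a difference of -1.16 ± 0.32 (adjusted p = 0.0306). Of these, Nolc1 and Lyar were not called without either G-MDSC array, and Npm1 was not called without G-MDSC replicate 2 (adjusted p = 0.124). Nucleolin, Ncl, had 3832 and 2638 against 6470 and 6229, a difference of -0.99 ± 0.31 just outside the threshold (adjusted p = 0.0506). The GTPase Gnl3, nucleostemin, and the RNA helicase Ddx21 were also just outside it. Gnl3 had 704 and 656 against 1287 and 1438 (-0.98 ± 0.31; adjusted p = 0.0522). Ddx21 had 323 and 293 against 543 and 960 (-1.19 ± 0.38; adjusted p = 0.052). Ncl and Gnl3 passed without either neutrophil array, and Ddx21 passed without neutrophils replicate 1 but not without replicate 2 (adjusted p = 0.105).

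Factors of the small subunit fell in 6 of 9 cases. Tsr1, a GTPase-like factor that holds late small subunit precursors, had 235 and 221 in the G-MDSC arrays against 1181.5 and 1113 in those of neutrophils. The difference of Tsr1 was -2.25 ± 0.33 (SE, n = 2 per group; adjusted p = 0.00122), with little spread in either group. Heatr1, Wdr43 and Wdr75 belong to the subcomplex that first joins the precursor and links its transcription to processing. Heatr1 had 391 and 432 against 1451 and 1360, a difference of -1.73 ± 0.32 (adjusted p = 0.004), or -0.27 and not called with the median of its probe sets. Wdr75 had 191 and 175 against 620 and 702, a difference of -1.76 ± 0.36 (adjusted p = 0.00683). Wdr43 had 364 and 301 against 947.5 and 728, a difference of -1.29 ± 0.34 (adjusted p = 0.0256). All 3 of this subcomplex fell, but Wdr43 and Wdr75 were not called without either G-MDSC array. Utp18, another processome protein, had 570 and 622 against 1297.5 and 2121, a difference of -1.45 ± 0.34 (adjusted p = 0.0143). Nop14, which works with Noc4l and the methyltransferase Emg1, had 153 and 144 against 372 and 389. Its difference of -1.27 ± 0.39 lay just inside the threshold (adjusted p = 0.0488). Both Utp18 and Nop14 were not called without either G-MDSC array.

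The remaining 3 small subunit genes did not pass. Noc4l, the partner of Nop14, had 433 and 375 in the G-MDSC arrays against 815 and 597 in those of neutrophils, the smallest difference of the class at -0.77 ± 0.34 (SE, n = 2 per group; adjusted p = 0.162). Rrp12, a factor for export of the precursors, had 29.5 and 35.1 against 220 and 146. Both its G-MDSC signals were below the 40th percentile of their arrays. With those percentiles in place of the signals, the bound on the main scale was at least 3.00-fold lower (adjusted p = 0.0722 for the signals as measured). The bound takes the neutrophil signals as measured, and the second was just above its own 40th percentile of 133. With quantile normalization the log2 difference of Rrp12 was -1.31, short of the bound. The median of the 39 genes was -1.39 with Rrp12 at the bound too. Nob1, the nuclease that makes the last cut of the small subunit RNA, had 129 and 18.1 against 191 and 226, a difference of -1.67 ± 0.72 (adjusted p = 0.147). The G-MDSC arrays of Nob1 lay far apart, and its difference was -0.63 without G-MDSC replicate 2 and -2.71 without replicate 1.

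Of the 12 large subunit factors measured, 6 fell, and this class held both the largest difference of all 39 genes and a gene that was nearly level. Nop16, an early factor of the large subunit, had 82.5 and 112 in the G-MDSC arrays against 563 and 917 in those of neutrophils. The difference of Nop16 was -2.71 ± 0.41 (SE, n = 2 per group; adjusted p = 0.00148), or 6.54-fold. Rrs1, which brings the small ribosomal RNA of the large subunit into its precursor, had 628 and 464 against 2109 and 2656. The difference of Rrs1 was -2.10 ± 0.33 (adjusted p = 0.00157), on a probe set whose probes may also bind other transcripts. Noc3l, which binds early precursors, had 64.4 and 141 against 286 and 690, a difference of -2.04 ± 0.53 (adjusted p = 0.0223). Ppan, a factor needed for the long ribosomal RNA, had 101 and 23.6 against 373 and 204. Its difference of -2.10 ± 0.65 lay just inside the threshold (adjusted p = 0.0476). Leaving out 1 array moved Noc3l between -2.65 and -1.43 and Ppan between -2.88 and -1.32. Noc3l was not called without G-MDSC replicate 1 (adjusted p = 0.188), and Ppan was not called without G-MDSC replicate 1 or 2 (adjusted p = 0.0591 and 0.432). Nop2, a methyltransferase of the large subunit RNA, had 435 and 407 against 1130.5 and 816, a difference of -1.16 ± 0.34 (adjusted p = 0.0367). It was not called without G-MDSC replicate 1 or 2 (adjusted p = 0.233 and 0.286).

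The proteins Pes1, Bop1 and Wdr12 form a single complex that drives maturation of the large subunit, and their probe sets differed. Bop1 had 475 and 493 in the G-MDSC arrays against 1076 and 1325.5 in those of neutrophils and fell, by -1.28 ± 0.32 (SE, n = 2 per group; adjusted p = 0.0199), and was not called without 1 or the other G-MDSC array. Wdr12 had 220.01 and 156 against 316 and 826, a difference of -1.39 ± 0.47 (adjusted p = 0.068). Pes1 had 1010 and 789 against 1100 and 1188, a difference of -0.35 ± 0.32 (adjusted p = 0.494). Wdr12 rested much on neutrophils replicate 2, with -0.72 without it against -2.06 without neutrophils replicate 1. Whether the 3 partners differed from one another was not tested.

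The other 4 large subunit genes did not pass. Nip7, which acts in late processing, had 581 and 756 in the G-MDSC arrays against 1100 and 2034 in those of neutrophils (-1.16 ± 0.37, SE, n = 2 per group; adjusted p = 0.0537). Ftsj3, a methyltransferase, had 52.7 and 89.2 against 93.7 and 244 (-0.99 ± 0.66; adjusted p = 0.346). Noc2l, a partner of Noc3l, had 404 and 398 against 482 and 599 (-0.41 ± 0.34; adjusted p = 0.458). These 3 still had separate arrays, with G-MDSC below. Without neutrophils replicate 1 or 2, Nip7 was at -1.59 (called) or -0.72, Ftsj3 at -1.61 (called) or -0.37 and Noc2l at -0.56 or -0.25. Rrp1b, a nucleolar protein that also binds chromatin, was nearly level, with 651 and 663 against 674 and 627. Its difference was 0.01 ± 0.32 (adjusted p = 0.98), or -0.054 with quantile normalization and -0.036 without neutrophils replicate 2.

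**Figure D2:**
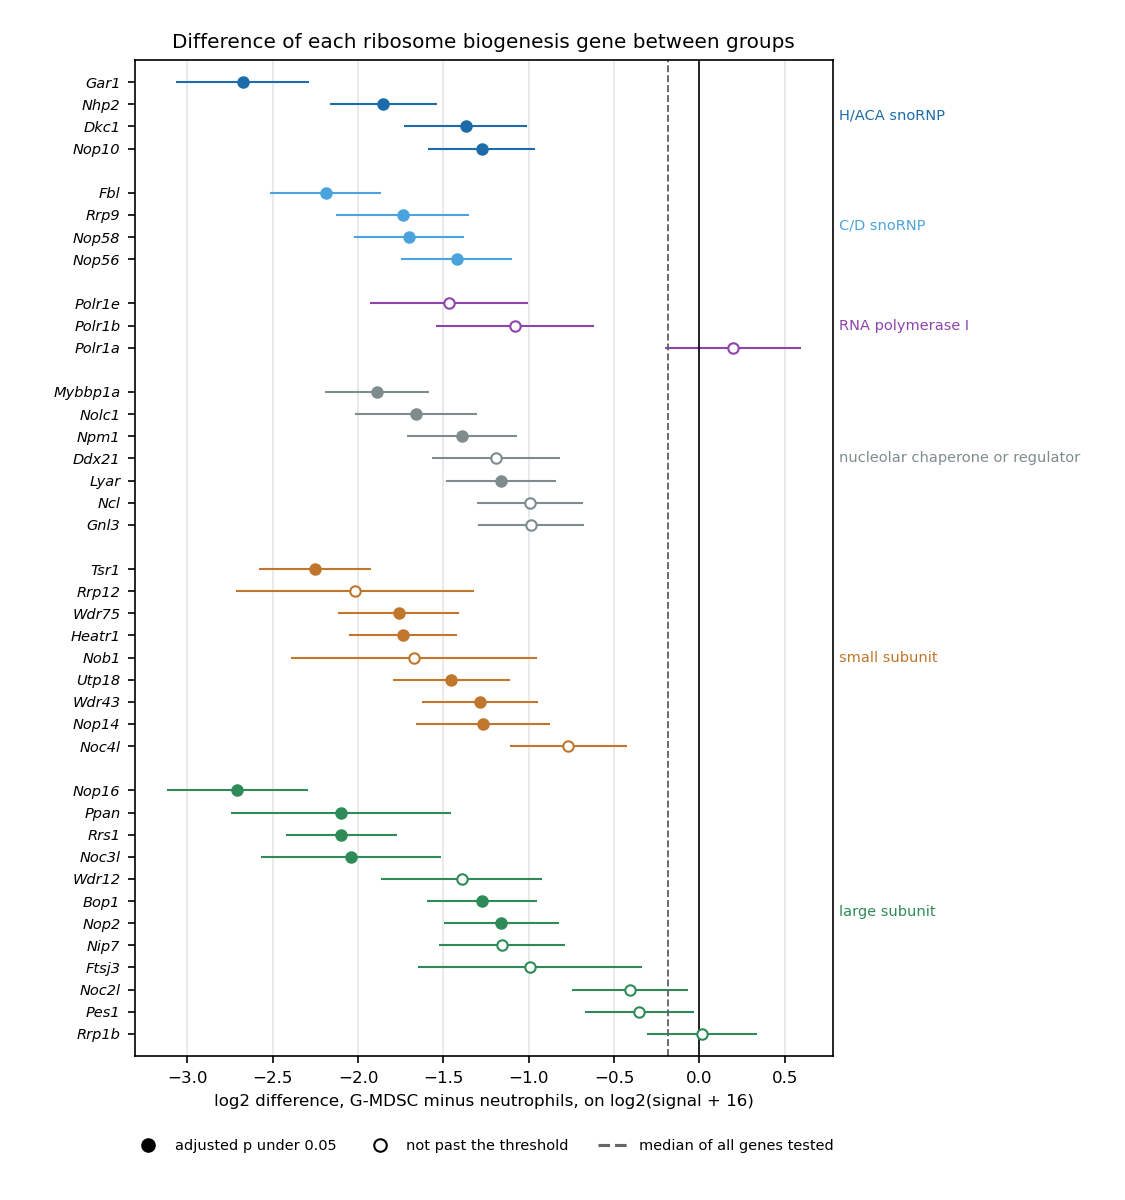
Log2 difference, G-MDSC minus neutrophils, of each of the 39 genes, by role, with bars of 1 SE from limma. Filled circles passed an adjusted p of 0.05 and open circles did not, the dashed line is the median of all genes at -0.18, and the point of Rrp12 is the fitted value rather than its bound. All 8 snoRNP proteins are filled, and the 3 RNA polymerase I subunits are open.

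Other probe sets of the same genes gave a further reading of the same RNA. Of the 39 genes, 26 had at least 1 more probe set above the filter, 35 in all, and 32 of these 35 lay below 0, with a median log2 difference of -1.45 and no test. For 3 of them, those of Pes1, Wdr12 and Nop16, both G-MDSC signals were at or below the 40th percentile, so they passed the filter only through neutrophils. Without these 3, 29 of 32 lay below 0, with a median of -1.45. The arrays were separate, with G-MDSC below, for 29 of the 35 and for 26 of the 32. The share over all probe sets above the filter was not computed, and the 32.2% given earlier is for 1 probe set per gene. For Noc2l, whose probe set above was not called, the second probe set gave -1.91. Those of Ncl ran from -1.79 to -1.11, that of Ddx21 gave -1.95, and the 3 of Noc4l ran from -1.45 to -0.78. Probe sets also differed in the other direction: Heatr1 gave -1.04 and -0.23, Bop1 -0.40 and Nip7 -0.23. With the median of the probe sets of each gene on each array, 25 genes were called lower, against 7.55% of all genes. Nolc1, Heatr1, Wdr75 and Bop1 were then not called, whereas Ncl, Ddx21, Gnl3, Noc4l and Noc2l were. The 3 probe sets above 0 belonged to Polr1a (0.35 and 1.45) and Rrp1b (0.32). Of the 39 probe sets used, 2 (Rrs1 and Polr1e) were of the kind that may cross-hybridise, and 4 (Gar1, Nhp2, Tsr1 and Noc4l) of the kind that matches several transcripts.

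**Figure D3:**
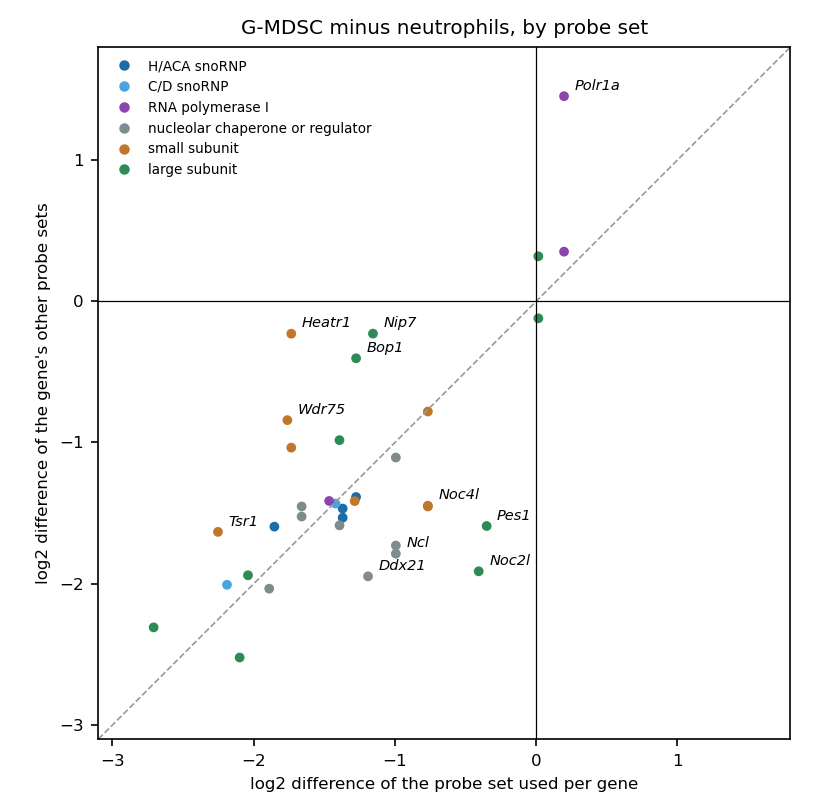
Log2 difference, G-MDSC minus neutrophils, of the probe set used for a gene (x axis) against that of its other probe sets above the filter (y axis), coloured by role, with the line of equality dashed. Of the 35 other probe sets, 32 lie below 0, 3 of them (of Pes1, Wdr12 and Nop16) with both G-MDSC signals at or below the 40th percentile, and genes with a gap of over 0.6 are named.

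Replicates of a group also differed from each other over this list. Neutrophils replicate 2 was above replicate 1 for 28 of the 39 genes, with a median log2 gap of 0.23, close to the 0.26 over all genes. G-MDSC replicate 1 was above replicate 2 for 25 of the 39, with a median gap of 0.10 against -0.02 over all genes. The median log2 signal of the 39 genes was 8.81 and 8.63 in the G-MDSC arrays and 10.09 and 10.01 in those of neutrophils, whereas that of all tested genes was 8.51 and 8.43 against 8.51 and 8.77.

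Further genes of the pathway were taken from 5 lists chosen by role, and of 145 entries 140 were tested. Of these, 32 fell and 0 rose (22.9% lower, against the background of 8.05%), with a median log2 difference of -0.61. With no adjustment 62 of the 140 had a limma p under 0.05, against 3890 of all 13139 genes. Spata5l1, which is among the 32, and Dhx37, which was not called, passed the filter only through their neutrophil arrays. Both were named for this reason. The number called lower was 13 and 8 without G-MDSC replicates 1 and 2, and 69 and 37 without neutrophils replicates 1 and 2, fits whose shares over all genes are given above. With the replicate number as a block it was 51, where 12.2% of all genes were called lower. Of 9 snoRNP assembly factors, 4 fell, among them Znhit6 (-2.08 ± 0.49, SE, n = 2 per group) and Nufip1 (-1.55 ± 0.36), both of which help build box C/D particles. Znhit3, of the same assembly pathway, differed by -1.34 ± 0.39 (adjusted p = 0.0395), and Naf1, which carries dyskerin before Gar1 takes its place, by -1.29 ± 0.36 (adjusted p = 0.0326), and both were named after their values were seen. Znhit6 was not called without G-MDSC replicate 2, and Nufip1 without replicate 1 or 2. The other 5 were not called, and of these Pih1d1 lay above 0 at 0.32. The list had 1 and 0 called genes without G-MDSC replicates 1 and 2, and its median of -1.27 was -0.83 without the latter.

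Of 52 further small subunit factors, 13 fell, with a median of -0.65. Rcl1, a nucleolar processing factor, had signals of 80.8 and 140 in the G-MDSC arrays against 520 and 1036 in those of neutrophils, a difference of -2.61 ± 0.45 (SE, n = 2 per group; adjusted p = 0.00282). Pno1, the partner of Nob1, had 181 and 225 against 682 and 2485, a difference of -2.60 ± 0.51 (adjusted p = 0.00596), or -1.68 without neutrophils replicate 2. Of 48 further large subunit factors, 13 fell, with a median of -0.81. Tma16, which rides on large subunit precursors, differed more than any of the 39 genes, with 84.1 and 77.9 against 1154 and 1412 (-3.74 ± 0.36; adjusted p = 8.2e-05), or -2.41 with the median of its probe sets. Zfp593, a shuttling factor of the same precursors, had 243 and 371 against 1795 and 1836 (-2.53 ± 0.34; adjusted p = 0.000687). Fewer genes of both lists were called without either G-MDSC array. Without G-MDSC replicate 2 the share called lower in the small subunit list was near that of all genes. The list medians, small subunit first, were -0.55 and -0.91 without G-MDSC replicate 1 and -0.77 and -0.91 without G-MDSC replicate 2. They were -0.86 and -1.17 without neutrophils replicate 1 and -0.56 and -0.64 without neutrophils replicate 2. Over all genes the medians of these fits were -0.13, -0.18, -0.35 and 0.03, in the same order.

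Fewer genes were called elsewhere in the pathway. Of 16 further genes of the RNA polymerase I machinery, 1 fell, a share of 6.25% that is near the background of 8.05%. This was Rrn3, the initiation factor through which growth signals reach the polymerase, with 185 and 161 in the G-MDSC arrays against 453 and 545 in those of neutrophils (-1.44 ± 0.37, SE, n = 2 per group; adjusted p = 0.0229). The call of Rrn3 was lost with quantile normalization and without either G-MDSC array. Of 15 genes of the exosome and other nucleases that trim the precursors, 1 fell, Exosc1 (-1.65 ± 0.38; adjusted p = 0.0123), which was not called without G-MDSC replicate 1, and the median was -0.15. That median was -0.61 with the median of probe sets, -0.46 without G-MDSC replicate 1, -0.39 without neutrophils replicate 1 and 0.088 with median scaling. Without neutrophils replicate 1, 6 genes of this list were called lower, in a fit that called 26.4% of all genes lower. Whether these lists differed from the snoRNP and subunit lists was not tested.

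Ribosomal proteins, the cargo of this machinery, were measured for 42 of 77 listed genes, since many of their probe sets match several gene symbols. Of the 42, 3 fell and 0 rose, 7.14% against the background of 8.05%, with a median of -0.44. Rpl14 had signals of 74.5 and 55.3 in the G-MDSC arrays against 268 and 327 in those of neutrophils. It differed by -1.96 ± 0.50 (SE, n = 2 per group; adjusted p = 0.0213). Rps25 had 1625.5 and 1180 against 3194 and 3482, a difference of -1.26 ± 0.31 (adjusted p = 0.018). Neither was called without G-MDSC replicate 2, nor Rpl14 without replicate 1, nor Rps25 with median scaling. The third, Rps18, named after its value was seen, differed by -1.10 ± 0.32 (adjusted p = 0.0392). Its probe set was far brighter than those of Rpl14 and Rps25, with 11889 and 11310 against 20110 and 30661. The number called lower was 1 and 0 without G-MDSC replicates 1 and 2, where 4.37% and 4.27% of all genes were called lower, and 20 without neutrophils replicate 1, where 26.4% were. The median was -0.72 without neutrophils replicate 1, -0.17 without replicate 2 and -0.21 with median scaling. Myc itself was nearly level, with signals of 554 and 720 in the G-MDSC arrays against 573 and 709 in those of neutrophils (-0.01 ± 0.34; adjusted p = 0.984), and its difference ran from -0.20 to 0.22 over the alternatives. Of 10 genes of the MYC network, 5 rose and 0 fell, against 8.3% of all genes called higher and 8.05% lower. With the replicate number as a block, 1 of the 10 was called lower. Mxd4 and Mxi1, which compete with MYC for MAX and act as repressors, were higher by 2.18 ± 0.46 (adjusted p = 0.00834) and 2.13 ± 0.31 (adjusted p = 0.00111). Max was higher by 1.53 ± 0.43 (adjusted p = 0.0341), a call lost with either other scaling and on leaving out G-MDSC replicate 1 or neutrophils replicate 2. Mga and Mnt, further partners of MAX named after their values were seen, were higher by 1.63 ± 0.37 (adjusted p = 0.0121) and 1.25 ± 0.31 (adjusted p = 0.0187). Mxd1, also a partner of MAX and named after its value was seen, lay below 0 at -0.75 ± 0.32 (adjusted p = 0.145). Its signals were 10944 and 16468 in the G-MDSC arrays against 21964 and 23121 in those of neutrophils. With Mxd1, 4 of the 10 genes lay below 0. The call of Mxd4 was lost with quantile normalization and with the median of its probe sets (0.97), and the network had 2 and 3 called genes without G-MDSC replicates 1 and 2.

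Most cell cycle genes lay on the other side of 0. Of 23 tested, 10 were higher and 0 lower in G-MDSC, against 8.3% and 8.05% of all genes. Their median was 1.24, in the same arrays in which 24 of 39 ribosome biogenesis genes were lower. The 2 below 0, Mcm2 (-0.48) and Mcm6 (-0.05), were not called and were named after their values were seen. Ube2c, which drives exit from mitosis, had signals of 2878 and 1080 in the G-MDSC arrays against 222 and 308 in those of neutrophils (2.68 ± 0.44, SE, n = 2 per group; adjusted p = 0.00234). Tk1, a thymidine kinase, had 353 and 212 against 16.2 and 27, both below the 40th percentile of their arrays, so it was at least 2.90-fold higher (adjusted p = 0.0122). The number called higher was 1 without G-MDSC replicate 1 and 10 without G-MDSC replicate 2, and 15 and 13 without neutrophils replicates 1 and 2. Of all genes, 3.27%, 3.89%, 18.4% and 13.0% were called higher in these fits, in the same order. The median of the list was 0.63 without G-MDSC replicate 1 and 1.88 without replicate 2. The call of Tk1 was lost without either G-MDSC array.

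**Figure D4:**
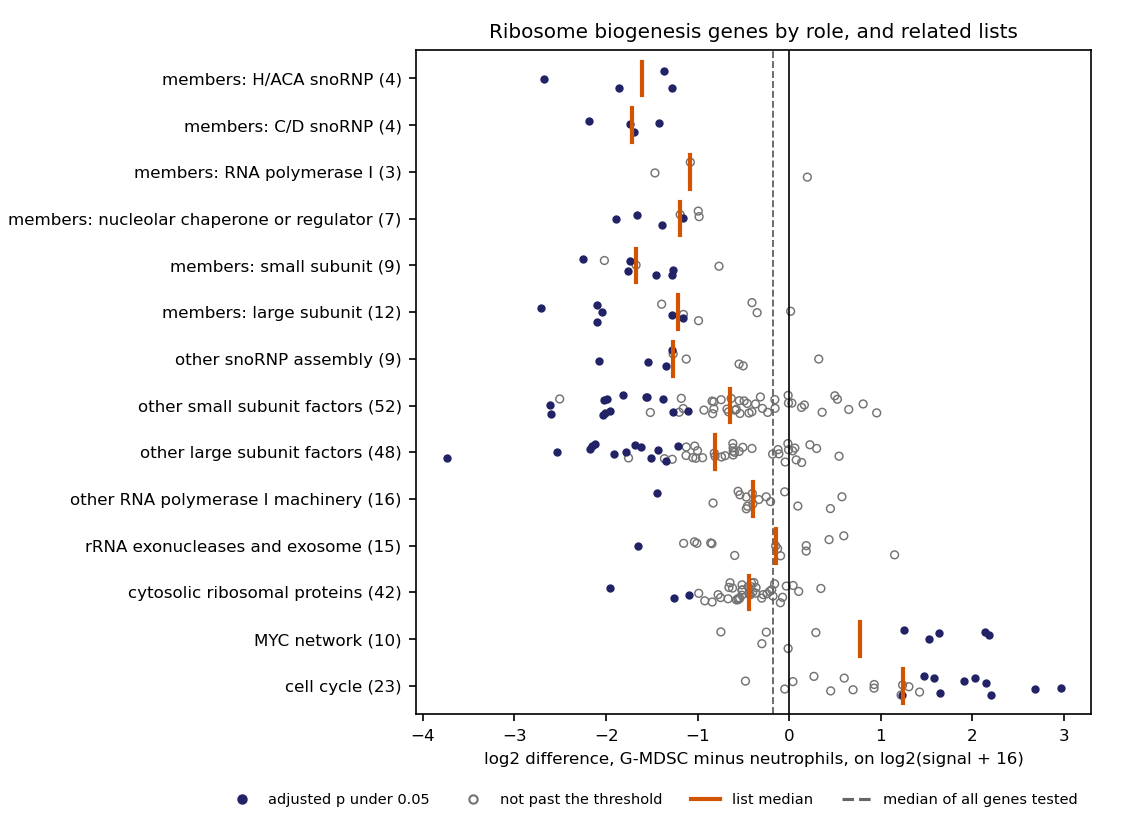
Log2 difference, G-MDSC minus neutrophils, of each tested gene (points, spread vertically for legibility), by role among the 39 genes and in the other lists, with the number tested in parentheses. Filled points passed an adjusted p of 0.05, orange bars are list medians, and the dashed line is the median of all genes at -0.18. The 6 role classes have medians from -1.72 to -1.08, the cytosolic ribosomal proteins -0.44 and the cell cycle genes 1.24.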

How the data were processed

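The intensity values deposited by the authors are linear MAS5 signals made with GCOS 1.4, per the submitters' processing notes; their mean is 500 per array with 2% of the 45101 probe sets trimmed at each end. Genome build and detection calls are not given in the sources used here. Depth does not apply, and 2 arrays per group limit the precision. Annotation gave 1 symbol for 34945 probe sets, several for 932 and none for 9160, and 34741 matched RefSeq GRCm38.p6, used for names and promoters.

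Signals were used as log2(signal + 16), which understates changes of dim genes. Probe sets above the 40th percentile in at least 2 arrays were kept (28754), and the brightest per gene represented it. Differences were fitted over 13139 genes with limma 3.58.1 (lmFit, eBayes with an intensity trend) in R 4.3.3, two-sided, with Benjamini-Hochberg adjustment over all genes. Python 3.11.15, pandas 2.3.3, numpy 2.4.6 and matplotlib 3.10.9 made tables and figures. The fit was tested on simulated data. A bound was given where both arrays of a group lay at or below their 40th percentile.

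All genes on the list were named, with, from each related list, up to 2 called genes per direction with the largest differences, plus Myc and Max. The genes, lists and tests were chosen with earlier results of these data known. Alternatives were pseudocounts of 1 and 64, a floor, other filters, scalings, variance models and probe set choices, a block for the replicate number, and fits without each array. Readings of further probe sets and list counts without each array were added after seeing the data.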

Additional observations from a re-analysis of the deposited data

How the results depend on the processing

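Over 16 alternatives, 0 of the 39 genes were called higher in any. The 24 called lower became 13 with median scaling, 6 without the intensity trend and 0 without moderation across genes (22 at an unadjusted p under 0.05), and 11 to 33 without 1 array; where an array was left out, the lone sample was assumed to vary like the others. The median of -1.39 was -1.26 with a pseudocount of 64, -1.16 with median scaling and -1.69 to -1.30 without 1 array. Other pathway genes called lower (32) were 20 with no filter, 4 without the trend, 0 without moderation, 51 with the replicate block and 8 to 69 without 1 array. Those called higher (0) were 2 with the floor, 1 with no filter, 2 with the filter at the 60th percentile, 1 with median scaling, 1 with robust eBayes, 2 with the replicate block and 0 to 4 without 1 array. All genes called lower (1058) and higher (1091) were 331 and 148 without the trend, 0 and 0 without moderation (2379 at an unadjusted p under 0.05), 1607 and 1699 with the replicate block, and 561 to 3472 and 429 to 2419 without 1 array. Without 1 array fewer samples were fitted; the cause of the other changes was not tested. Rrp1b (0.015) turned to -0.054 with quantile normalization and ran from -0.036 to 0.066 without 1 array, lowest without neutrophils replicate 2. Polr1a (0.20) ran from -0.21 to 0.61 without 1 array, turning to -0.05 without G-MDSC replicate 1 and to -0.21 when neutrophils replicate 2 was left out. Of 620 single-gene values, 484 kept direction and side of the threshold, 92 lost the call and 40 gained it.

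The replicate numbers are shared by the groups but nothing says that they pair the samples; deviations of same-numbered arrays correlated at r = 0.24 over genes, which are not independent. With the replicate block 32 of the 39 genes were called lower, against 12.2% of all genes. Rrp12, with both G-MDSC signals below the 40th percentile, is limited by signal over background.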
